A study of Mus musculus with 6 samples.

Results

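Genes of B cell receptor signalling and its coreceptors were followed in B cells of Eµ-Myc mice, whose Myc transgene is under the control of the immunoglobulin heavy chain enhancer and so is active in B-lineage cells. The members are 39 genes taken from a list by gene symbol, with the probe set of the highest mean over the 6 arrays where a gene had several. Of these, 37 were measured among 19938 genes, each by 1 probe set of its own, and Lyn and Itpr1 were not analysed here. They were split by role into 27 measured activators, 8 inhibitors and 2 genes with both roles.

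Messenger RNA was measured on Mouse Gene 1.0 ST arrays in 3 groups of 2 samples. Primary B cell lymphomas of Eµ-Myc mice carried 1 of 2 short hairpin RNAs against Ezh2, the histone methyltransferase of polycomb repressive complex 2, namely shEzh2.781 or shEzh2.556. The third group held sorted splenic B cells of premalignant Eµ-Myc mice, from 2 independent preparations. All 3 groups therefore carry the Myc transgene, and the labels name premalignant cells also as normal control cells. CD43 beads were used to deplete other cells from the lymphomas, leaving suspensions in which 95% or more of cells carried B220 and GFP. Strain, age and sex are not given in the labels, and whether separate mice gave the 2 arrays of each hairpin is not said, so p-values cover only the spread among these samples, which can be technical. Every lymphoma analysed here carries an Ezh2 hairpin. Malignancy, hairpin and purification therefore cannot be told apart in the comparison with premalignant cells.

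The B cell receptor is a membrane immunoglobulin paired with the signalling chains CD79A and CD79B. When it binds antigen, Src family kinases phosphorylate the tails of these chains, the kinase SYK docks there, and SYK and BTK act through the adaptor BLNK on phospholipase C gamma, which opens calcium stores and activates RAS and protein kinase C. Phosphoinositide 3-kinase adds a parallel lipid signal. Inhibitory receptors such as CD22, CD72 and the Fc receptor encoded by Fcgr2b recruit phosphatases to the same complex and set its threshold.

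The hairpin target was lower in the lymphomas. Ezh2 signal was 10.92 and 11.07 in shEzh2.781 lymphomas, 11.20 and 11.30 in shEzh2.556 lymphomas, and 12.64 and 12.70 in premalignant cells (log2). The difference over both hairpins was -1.55 (log2, SE 0.10, limma adjusted p = 1.31e-06). The B-lineage markers Cd79a, Cd79b, Ms4a1, Pax5, Ebf1 and Ptprc had mean signals of 11.59 to 11.76 in shEzh2.781 lymphomas, 11.60 to 11.68 in shEzh2.556 lymphomas and 11.79 to 11.90 in premalignant cells. Of these markers, Cd79a, Cd79b and Ptprc are also members, so the list is not separate from the members. Among other blood cells, the 18 neutrophil markers had mean signals of 7.64 to 8.21 in shEzh2.781 lymphomas, 6.14 to 6.70 in shEzh2.556 lymphomas and 8.69 to 8.95 in premalignant cells. In bulk samples such as these, fewer cells of a type and less RNA per cell cannot be told apart.

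In the lymphomas the receptor chains were not called, 10 activating signal transducers fell, and the inhibitory receptors moved in opposite directions. Fcgr2b and Cd22 rose. Cd72 fell, as did the kinase Blk, the exchange factor Vav3 and the adaptor Pik3ap1. Over all 37 members, 12 fell and 2 rose at an adjusted p under 0.05 (limma across all genes, Benjamini-Hochberg), which is 32.4% and 5.41% of them. Of all genes tested, 9.61% fell and 5.6% rose. The members' median difference was -0.18, against 0.025 over all genes. With genes at or below the median level left out, 14 of 33 members were called, against 2678 of 9969 genes. The median difference over those 9969 genes was -0.032. In 21 of 37 members all 4 lymphoma arrays lay below both premalignant arrays and in 4 all lay above, against 16.1% and 12.7% of all genes. Of the 14 calls, 5 were at least 2-fold, and 2.59% of all genes were called and at least 2-fold. Leaving out either premalignant array gave fewer members that fell, and fewer calls over all genes. Treating the 4 lymphomas as a single group gave 3 that fell (Vav3, Pik3ap1 and Rasgrp1), with Fcgr2b and Cd22 again higher. In that fit 1091 of all genes were called, against 3033 in the main fit.

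**Figure D1:**
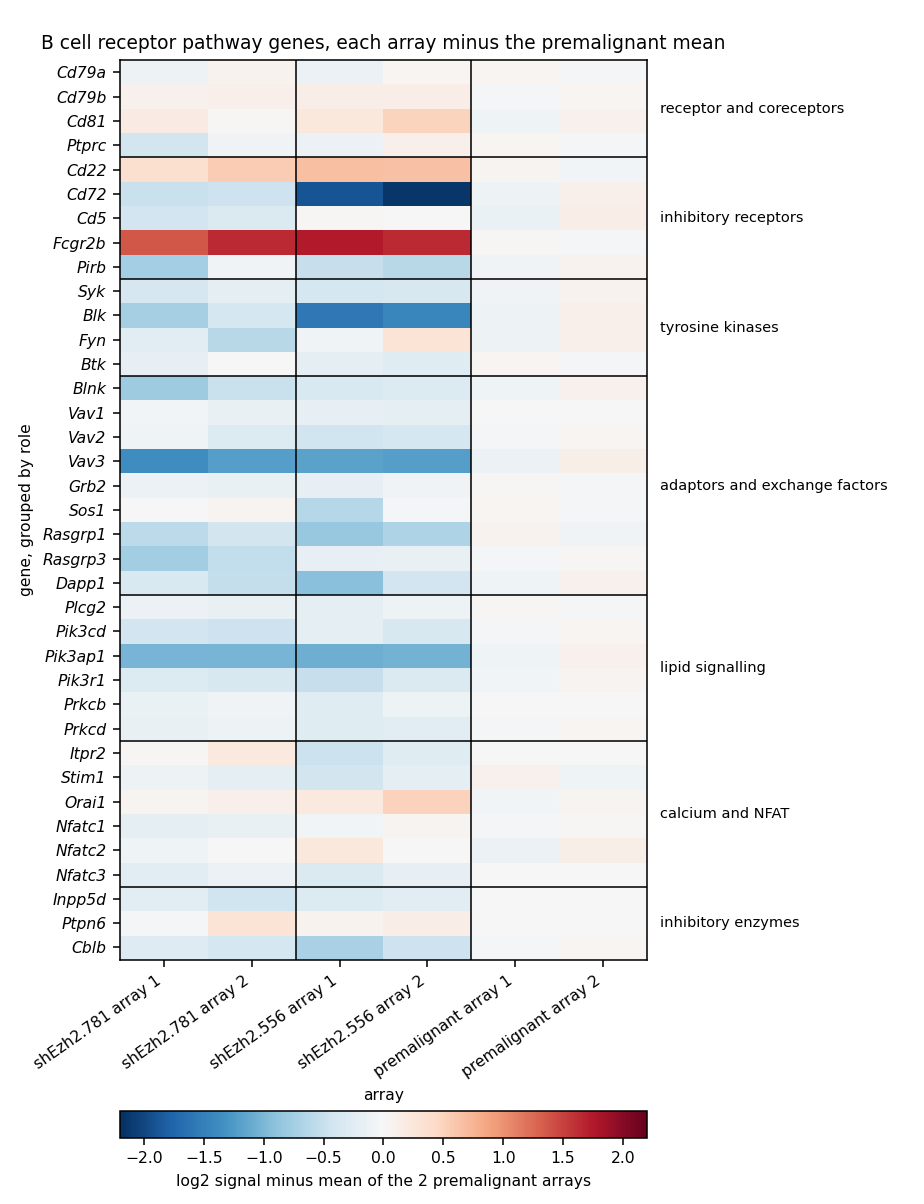
Signal of the 37 measured genes (rows, grouped by role) in each of the 6 arrays (columns), as log2 signal minus the mean of the 2 premalignant arrays. Fcgr2b is the strongest red row, with lymphoma arrays at 11.01 to 11.40 against 9.67 and 9.64 in premalignant cells, while Cd72 and Blk are darkest in the shEzh2.556 columns and Pik3ap1 and Vav3 are blue across all 4 lymphoma arrays.

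Upstream sequences are shown for the inhibitory receptors Fcgr2b and Cd22, which rose, and for Cd72 and the adaptor Pik3ap1, which fell. Each is the 250 bases before the gene start on the gene's strand, from RefSeq on GRCm38.p6; Fcgr2b lies at chr1:170976072-170976321, Cd22 at chr7:30879029-30879278, Cd72 at chr4:43454627-43454876 and Pik3ap1 at chr19:41385103-41385352, all on the minus strand. Capitals mark matches, on either strand, to the E-box CACGTG that MYC and related factors bind, the octamer ATTTGCAT, the EBF1 core CCCNNGGG and the PU.1 core GAGGAAGT.
Fcgr2b: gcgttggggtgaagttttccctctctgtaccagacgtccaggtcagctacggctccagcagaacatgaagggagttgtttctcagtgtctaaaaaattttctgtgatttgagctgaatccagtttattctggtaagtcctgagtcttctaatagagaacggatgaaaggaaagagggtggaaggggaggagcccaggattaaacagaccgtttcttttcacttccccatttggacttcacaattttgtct
Cd22: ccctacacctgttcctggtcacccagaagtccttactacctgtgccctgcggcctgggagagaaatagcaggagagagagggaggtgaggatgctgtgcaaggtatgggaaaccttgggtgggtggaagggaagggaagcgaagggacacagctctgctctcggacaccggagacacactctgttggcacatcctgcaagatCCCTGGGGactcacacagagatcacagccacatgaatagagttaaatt
Cd72: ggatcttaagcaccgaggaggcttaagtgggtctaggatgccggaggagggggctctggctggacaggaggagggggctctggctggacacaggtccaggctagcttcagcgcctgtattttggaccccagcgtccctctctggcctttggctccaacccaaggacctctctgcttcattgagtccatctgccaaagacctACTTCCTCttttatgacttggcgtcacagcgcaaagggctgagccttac
Pik3ap1: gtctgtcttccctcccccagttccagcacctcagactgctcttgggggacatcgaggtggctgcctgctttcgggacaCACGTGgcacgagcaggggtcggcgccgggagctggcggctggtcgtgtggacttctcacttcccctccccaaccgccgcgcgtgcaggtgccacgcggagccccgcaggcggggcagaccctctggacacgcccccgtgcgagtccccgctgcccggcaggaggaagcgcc

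Pik3ap1 held an E-box, Cd72 a PU.1 core on the opposite strand and Cd22 an EBF1 core, while the Fcgr2b window had no match to the 4 motifs. Of the 37 members 34 matched the RefSeq table, with 46 windows because some genes have several starts, and Cd79b, Blk and Nfatc1 had no entry. The PU.1 core occurred in 8 of the 46 windows (17.4%), against 2.44% of all 32851 windows of this length. The octamer occurred in 3 (6.52%), those of Blnk, Orai1 and Prkcb, against 1.6%. The EBF1 core was in 8 (17.4%) against 11.8%, and the E-box in 4 (8.7%) against 6.02%. Among the 18 windows of members that fell, 2 held a PU.1 core, 3 an EBF1 core, 1 an octamer and 1 an E-box. All 3 of these EBF1 windows are starts of Vav3, of which 2 overlap, so that the 8 windows with an EBF1 core belong to 6 genes. CpG pairs numbered 5 in Fcgr2b, 4 in Cd22, 6 in Cd72 and 23 in Pik3ap1, against a median of 6.5 over the 46 windows and 6 over all windows. Matches are a description of letters in these windows and do not show binding.

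The receptor chains and the activating coreceptors were not called. Cd79a, a signalling chain of the receptor, had signals of 12.37 and 12.56 in shEzh2.781 lymphomas, 12.34 and 12.52 in shEzh2.556 lymphomas, and 12.53 and 12.42 in premalignant cells, so the groups overlapped. Its difference was -0.028 (95% interval -0.26 to 0.20, adjusted p = 0.904), and its sign changed with median centring and when single arrays were left out. Cd79b, the partner chain, had 12.95 and 12.95 in shEzh2.781 lymphomas, 13.00 and 13.00 in shEzh2.556 lymphomas, and 12.82 and 12.89 in premalignant cells. All lymphoma arrays lay above both premalignant arrays, but by little, with a difference of 0.12 (95% interval -0.08 to 0.33, adjusted p = 0.452). Cd81 encodes a tetraspanin of the B cell surface and differed by 0.23 (95% interval -0.012 to 0.48, adjusted p = 0.211). Ptprc encodes the phosphatase CD45, which keeps Src family kinases ready to act, and differed by -0.12 (95% interval -0.39 to 0.14, adjusted p = 0.578).

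The 5 inhibitory receptors split into 2 that rose, 1 that fell and 2 that were not called. Of all genes, 5.6% rose and 9.61% fell. Fcgr2b, the inhibitory Fc receptor that recruits the lipid phosphatase SHIP when antibody and antigen are bound together, had signals of 11.01 and 11.29 in shEzh2.781 lymphomas, 11.40 and 11.30 in shEzh2.556 lymphomas, and 9.67 and 9.64 in premalignant cells. Every lymphoma array was far above both premalignant arrays. It rose by 1.59, or 3.02-fold (SE 0.11, adjusted p = 1.86e-06), with 1.50 for shEzh2.781 and 1.69 for shEzh2.556, and the difference between hairpins was -0.20 (95% interval -0.47 to 0.074, adjusted p = 0.287). Macrophages and neutrophils also express this receptor. Of 13 macrophage and monocyte markers, 3 rose and 1 fell (median 0.11), and 0 rose without premalignant array 1, 0 without shEzh2.556 array 1 and 1 without premalignant array 2 or shEzh2.781 array 2. The mean signal of this list was 7.35 to 7.55 in shEzh2.781 lymphomas, 7.44 to 7.76 in shEzh2.556 lymphomas and 7.55 to 7.60 in premalignant cells. Neutrophil markers moved the other way, with 17 of 18 lower. The part of other cells in the Fcgr2b signal was not tested.

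Cd22, a sialic acid-binding lectin that recruits the phosphatase SHP-1, had 11.32 and 11.53 in shEzh2.781 lymphomas, 11.63 and 11.62 in shEzh2.556 lymphomas, and 11.04 and 10.91 in premalignant cells. The groups did not overlap, and it rose by 0.55 (SE 0.10, adjusted p = 0.00309). With shEzh2.781 alone the rise of 0.45 (adjusted p = 0.0301) was no longer called without premalignant array 1 (adjusted p = 0.0565), premalignant array 2 (0.182) or shEzh2.781 array 2 (0.279). With shEzh2.556 it rose by 0.65 (adjusted p = 0.00258).

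Cd72, a lectin-like coreceptor that also recruits SHP-1, had signals of 11.84 and 11.87 in shEzh2.781 lymphomas, 10.43 and 10.20 in shEzh2.556 lymphomas, and 12.22 and 12.44 in premalignant cells. All lymphomas were below premalignant cells, and the shEzh2.556 arrays were far below the shEzh2.781 arrays. Over both hairpins it fell by 1.25 (SE 0.11, adjusted p = 1.33e-05), by 0.48 with shEzh2.781 (adjusted p = 0.0307) and by 2.02 with shEzh2.556 (adjusted p = 1.11e-06). The shEzh2.781 call rested on premalignant array 2 (adjusted p = 0.217 without it) and on both shEzh2.781 arrays (0.117 without the first, 0.0876 without the second), and it ended after median centring (0.0736). With the 4 lymphomas as 1 group, whose spread then includes the gap between hairpins, the adjusted p was 0.191.

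Cd5, a scavenger receptor family member that dampens signalling in T cells and in B-1 cells, had low signals of 6.53 and 6.63 in shEzh2.781 lymphomas, 6.98 and 6.97 in shEzh2.556 lymphomas, and 6.81 and 7.10 in premalignant cells, and the groups overlapped. It differed by -0.18 (95% interval -0.41 to 0.059, adjusted p = 0.337). Pirb, a receptor for MHC class I that is found on B cells and myeloid cells, had 7.60 and 8.26 in shEzh2.781 lymphomas, 7.84 and 7.74 in shEzh2.556 lymphomas, and 8.26 and 8.43 in premalignant cells. The lower shEzh2.781 array lay with the shEzh2.556 arrays and the higher one level with premalignant array 1. Pirb also has 2 probe sets shared with other genes, which were not used. Its difference of -0.48 was not called (SE 0.16, adjusted p = 0.0595), though it passed with a mean-variance trend (0.045) and with the replicate number as a block (0.0347). Without shEzh2.781 array 2 the difference was -0.65 and passed (adjusted p = 0.000608). Neutrophil markers were lower alongside it, with a median of -1.88, and their part in the Pirb signal was not tested.

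**Figure D2:**
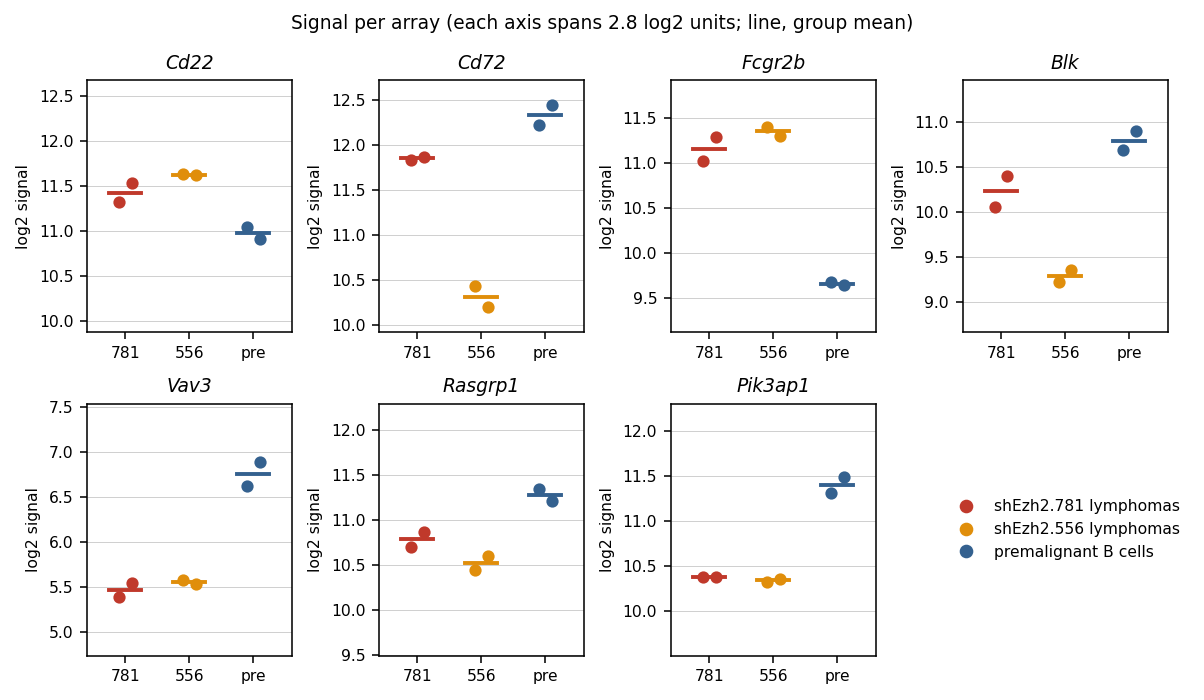
Signal per array (log2, vertical axis) of the 7 genes that were called in lymphomas against premalignant cells whichever array was left out, with shEzh2.781 lymphomas, shEzh2.556 lymphomas and premalignant cells from left to right and a line at each group mean. Fcgr2b and Cd22 lie above premalignant cells, the other 5 below, and Cd72 drops to 10.43 and 10.20 in shEzh2.556 lymphomas, against 12.22 and 12.44 in premalignant cells.

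Of the inhibitory enzymes, 1 of 3 fell. Cblb, a ubiquitin ligase that limits receptor signals, had 10.56 and 10.46 in shEzh2.781 lymphomas, 10.14 and 10.39 in shEzh2.556 lymphomas, and 10.79 and 10.89 in premalignant cells. All lymphoma arrays were below both premalignant arrays, and it fell by 0.46 (SE 0.11, adjusted p = 0.0123), a call that ended without premalignant array 2 (0.109). Inpp5d encodes the lipid phosphatase SHIP, to which Fcgr2b couples. Its 4 lymphoma arrays, at 11.42 to 11.62, were also below 11.85 and 11.88 in premalignant cells, but the difference of -0.31 did not pass (SE 0.10, adjusted p = 0.0594). It passed with dim genes left out (0.0359) and with a mean-variance trend (0.0101). Ptpn6, which encodes the tyrosine phosphatase SHP-1, differed by 0.12 (95% interval -0.13 to 0.37, adjusted p = 0.566). In all, 2 of 8 inhibitors rose and 2 fell (25% each, against 5.6% and 9.61% of all genes), with a median of -0.24. At an unadjusted limma p under 0.05, 4 were lower (50%) and 2 higher (25%). Of all genes, 15.9% were lower and 10.9% higher at that threshold.

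Activators leaned one way. Of 27 measured, 10 fell (37%, against 9.61% of all genes) and none rose. A negative difference was found in 23 (85.2%, against 44.4% of all genes), and the median was -0.16. At an unadjusted p under 0.05, 11 were lower (40.7%) and 0 higher, against 15.9% lower and 10.9% higher of all genes. With genes at or below the median level left out, 9 of 24 activators fell. In that fit 2678 of 9969 genes were called in either direction, with a median difference of -0.032. The list as a whole was not tested. Of the activators, 5 fell if premalignant array 1 was dropped, 4 if premalignant array 2 was dropped and 3 with the lymphomas as 1 group. Of the activators that fell, Vav3, Pik3ap1, Blk and Rasgrp1 were called whichever array was left out. Beside them, 2 of 6 B-lineage markers, Pax5 and Ebf1, fell as well (median -0.15), and 0 fell without premalignant array 2.

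Markers of other cells moved in the same comparison. Of 7 erythroid markers 5 fell (median -1.01, 2 without premalignant array 2), with mean signals of 6.31 to 6.81 in shEzh2.781 lymphomas, 7.50 to 7.87 in shEzh2.556 lymphomas and 7.81 to 8.14 in premalignant cells. Of 9 dendritic cell markers 4 fell and 1 rose (median -0.34, 2 lower without premalignant array 2), with mean signals of 6.49 to 6.54 in shEzh2.781 lymphomas, 6.38 to 6.55 in shEzh2.556 lymphomas and 6.95 to 7.44 in premalignant cells. Of 8 NK cell markers 4 fell (median -0.34, 2 without premalignant array 1), with mean signals of 5.60 to 5.71 in shEzh2.781 lymphomas, 5.60 to 5.75 in shEzh2.556 lymphomas and 5.92 to 5.94 in premalignant cells. Plasma cell markers had 3 lower and 1 higher of 7 (median -0.078). The part of these cells in the activators' values was not tested.

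**Figure D3:**
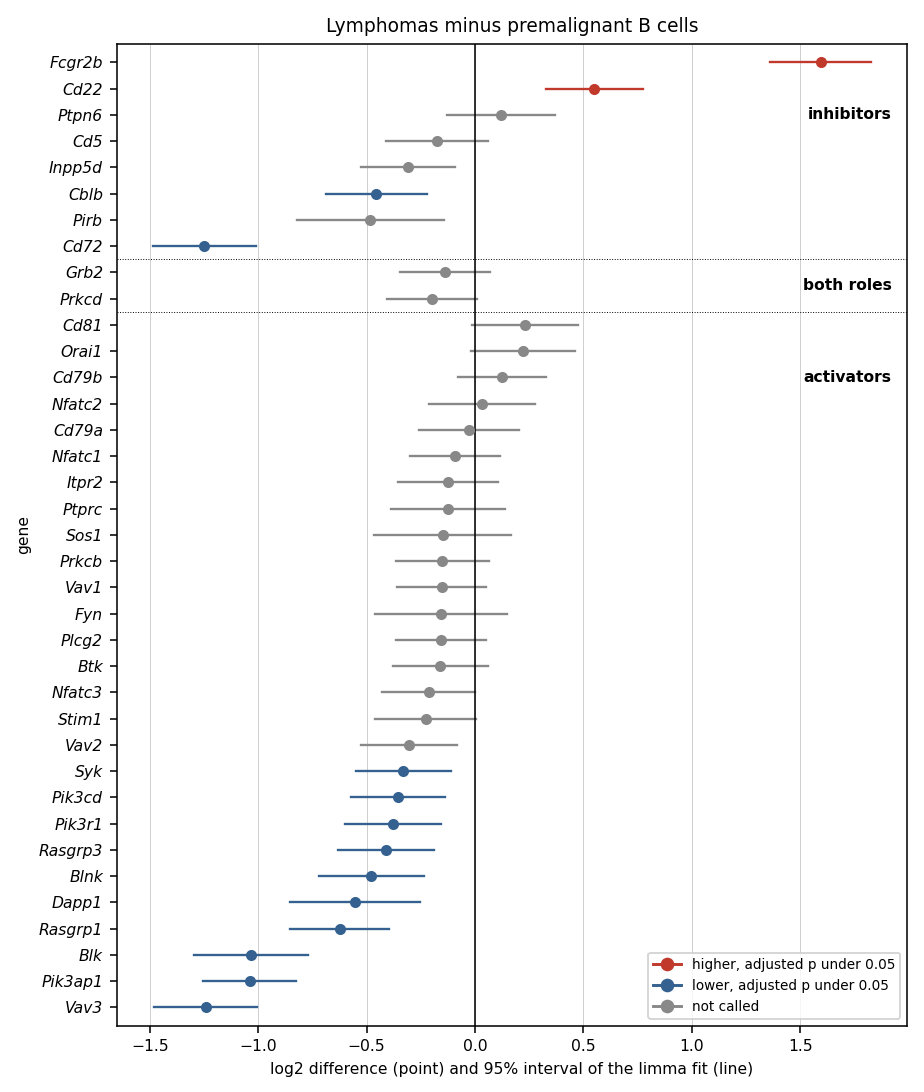
Difference in log2 signal between lymphomas of both hairpins and premalignant B cells (horizontal axis, points) with its 95% interval (lines) for the 8 inhibitors, the 2 genes with both roles and the 27 activators, ordered by size within each class. Inhibitors spread from -1.25 for Cd72 to 1.59 for Fcgr2b, while 10 activators lie to the left of 0 beyond the threshold and none to the right.

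Of the 4 tyrosine kinases measured, 2 fell, against 9.61% of all genes. Blk, a Src family kinase of B cells, had signals of 10.05 and 10.40 in shEzh2.781 lymphomas, 9.22 and 9.35 in shEzh2.556 lymphomas, and 10.68 and 10.90 in premalignant cells. As with Cd72, all lymphoma arrays were below premalignant cells and the shEzh2.556 arrays were lowest. It fell by 1.03, or 2.05-fold (SE 0.12, adjusted p = 0.000113), by 0.56 with shEzh2.781 (adjusted p = 0.0221) and by 1.50 with shEzh2.556 (adjusted p = 1.93e-05). The shEzh2.781 call ended without premalignant array 2 (0.189) or shEzh2.781 array 1 (0.198), and the call over both hairpins ended with the lymphomas as 1 group (0.0966). Syk, the kinase that docks on the phosphorylated receptor tails, had 11.23 and 11.37 in shEzh2.781 lymphomas, 11.20 and 11.24 in shEzh2.556 lymphomas, and 11.52 and 11.67 in premalignant cells. The groups did not overlap, and the fall of 0.33 was close to the threshold (SE 0.10, adjusted p = 0.044). Leaving out any 1 array ended this call (adjusted p = 0.0524 to 0.227), as did median centring (0.0778) and the replicate block (0.055). Btk, the Tec family kinase that acts on phospholipase C gamma, differed by -0.16 (95% interval -0.38 to 0.058, adjusted p = 0.351). Fyn, a Src family kinase shared with T cells, had 9.27 and 8.91 in shEzh2.781 lymphomas, 9.44 and 9.82 in shEzh2.556 lymphomas, and 9.40 and 9.63 in premalignant cells. The shEzh2.781 arrays were the 2 lowest of the 6, and the difference over both hairpins was -0.16 (SE 0.14, adjusted p = 0.54).

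Of the adaptors and exchange factors 5 of 9 fell, against 9.61% of all genes. Vav3, an exchange factor for small GTPases, had signals of 5.38 and 5.55 in shEzh2.781 lymphomas, 5.58 and 5.53 in shEzh2.556 lymphomas, and 6.62 and 6.89 in premalignant cells. The 4 lymphoma arrays lay within a narrow range below both premalignant arrays. It fell by 1.24, or 2.37-fold (SE 0.11, adjusted p = 1.35e-05) on the scale of the deposited values, with all 6 arrays below the median gene level. Its relatives were not called, as Vav1 differed by -0.15 (adjusted p = 0.341) and Vav2 by -0.30 (adjusted p = 0.0659). Vav2 fell by 0.42 with shEzh2.556 alone (adjusted p = 0.0285), a call lost without either premalignant array (0.0731 and 0.0968), without either shEzh2.556 array (0.141 and 0.0744) and after quantile normalization (0.0887).

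Rasgrp1 and Rasgrp3 encode exchange factors that activate RAS when they bind diacylglycerol. Rasgrp1 had signals of 10.70 and 10.87 in shEzh2.781 lymphomas, 10.44 and 10.60 in shEzh2.556 lymphomas, and 11.35 and 11.21 in premalignant cells, with every lymphoma array below premalignant cells. It fell by 0.62 (SE 0.10, adjusted p = 0.00152), and the fall of 0.49 with shEzh2.781 alone (adjusted p = 0.0214) was lost without premalignant array 1 (0.112), premalignant array 2 (0.0581) or shEzh2.781 array 1 (0.162) and after median centring (0.073). Rasgrp3 had low signals of 5.92 and 6.14 in shEzh2.781 lymphomas, 6.51 and 6.52 in shEzh2.556 lymphomas, and 6.66 and 6.71 in premalignant cells. The shEzh2.781 arrays were lowest, and the shEzh2.556 arrays were just under premalignant cells. Over both hairpins it fell by 0.41 (SE 0.10, adjusted p = 0.0162), a call lost without premalignant array 1 (0.0695), premalignant array 2 (0.107) or shEzh2.781 array 1 (0.0571). With shEzh2.781 it fell by 0.66 (adjusted p = 0.00346), and with shEzh2.556 it differed by -0.17 (adjusted p = 0.32).

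Blnk, the adaptor that links SYK to phospholipase C gamma, had signals of 10.59 and 10.87 in shEzh2.781 lymphomas, 11.02 and 11.07 in shEzh2.556 lymphomas, and 11.27 and 11.46 in premalignant cells. It was below premalignant cells in 4 of 4 lymphoma arrays and fell by 0.48 (SE 0.11, adjusted p = 0.0121), which was not called without premalignant array 2 (0.127). With shEzh2.781 the fall was 0.64 (adjusted p = 0.00711), not called without premalignant array 2 (0.0836) or shEzh2.781 array 1 (0.0697). With shEzh2.556 the difference was -0.32 (adjusted p = 0.108). Dapp1, an adaptor that binds the lipids made by phosphoinositide 3-kinase, had 9.36 and 9.17 in shEzh2.781 lymphomas, 8.78 and 9.28 in shEzh2.556 lymphomas, and 9.61 and 9.79 in premalignant cells. The first shEzh2.556 array was the lowest, and all 4 lymphoma arrays were below premalignant cells. It fell by 0.55 (SE 0.14, adjusted p = 0.0174), a call lost without premalignant array 1 (0.0632) or 2 (0.165). Grb2 and Sos1, the adaptor and exchange factor of the RAS pathway, differed by -0.14 (adjusted p = 0.406) and -0.15 (adjusted p = 0.572). For Sos1 the first shEzh2.556 array, at 8.06, stood apart from the other 5 at 8.64 to 8.74, and without it the difference was 0.0004.

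Lipid signalling genes fell in 3 of 6 cases, against 9.61% of all genes. Pik3ap1, the adaptor BCAP that brings phosphoinositide 3-kinase to the receptor complex, had signals of 10.37 and 10.38 in shEzh2.781 lymphomas, 10.32 and 10.35 in shEzh2.556 lymphomas, and 11.31 and 11.48 in premalignant cells. The 4 lymphoma arrays were nearly identical and far below both premalignant arrays. It fell by 1.04, or 2.05-fold (SE 0.10, adjusted p = 2.33e-05), and differed by 0.04 between hairpins (95% interval -0.21 to 0.29). Pik3cd encodes the catalytic subunit of this kinase in lymphocytes and had 9.99 and 9.94 in shEzh2.781 lymphomas, 10.21 and 10.06 in shEzh2.556 lymphomas, and 10.35 and 10.46 in premalignant cells. It fell by 0.35 (SE 0.10, adjusted p = 0.0302), with all lymphoma arrays below premalignant cells. Leaving out 5 of the 6 arrays in turn ended that call, with shEzh2.556 array 1 as the exception (adjusted p = 0.0368 to 0.166 over the 6), and median centring ended it as well (0.0598).

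Pik3r1, its regulatory subunit, had signals of 10.53 and 10.48 in shEzh2.781 lymphomas, 10.33 and 10.51 in shEzh2.556 lymphomas, and 10.78 and 10.90 in premalignant cells. It fell by 0.38 (SE 0.10, adjusted p = 0.0257), again with no overlap, and the call ended without either premalignant array (0.0652 and 0.16), the second shEzh2.781 array (0.0609) or the first shEzh2.556 array (0.0752). Plcg2, the phospholipase C gamma of B cells, differed by -0.16 (95% interval -0.36 to 0.051, adjusted p = 0.334). Prkcb, the protein kinase C that leads to NF-kB, differed by -0.15 (adjusted p = 0.375), and Prkcd, a protein kinase C with a part in B cell tolerance, by -0.20 (adjusted p = 0.208). All lymphoma arrays were below premalignant cells in each of these 3, as in 16.1% of all genes. The amounts were within the error of the fit.

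None of the 6 calcium and NFAT genes was called over both hairpins by limma, and none had an unadjusted p under 0.05. Itpr2 encodes a calcium release channel of the endoplasmic reticulum, Stim1 the sensor of the store and Orai1 the plasma membrane channel that STIM1 opens. Their differences were -0.12 (95% interval -0.35 to 0.11), -0.23 (-0.46 to 0.0057) and 0.22 (-0.017 to 0.46). The transcription factors that calcium activates differed by -0.093 for Nfatc1 (-0.30 to 0.12), 0.034 for Nfatc2 (-0.21 to 0.28) and -0.21 for Nfatc3 (-0.43 to 0.00046). Adjusted p values of the 6 ran from 0.188 to 0.889. The value for Nfatc2 turned negative without premalignant array 1 or shEzh2.556 array 1. With shEzh2.556 alone, 3 of the 6 were lower and 1 higher at an unadjusted limma p under 0.05, and none was called. Of all genes, 17.5% were lower and 16% higher at that threshold with this hairpin. With shEzh2.781 alone 0 of the 6 had such a p.

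Each hairpin was then set against premalignant cells on its own. With shEzh2.781, 8 members fell and 2 rose, against 6.24% and 4.6% of all genes. With shEzh2.556, 10 fell and 2 rose, against 11.4% and 6.8%. All arrays of the hairpin lay above both premalignant arrays in 5 members and below in 25 with shEzh2.781, against 22% and 28.6% of all genes. With shEzh2.556 they lay above in 6 and below in 24, against 35.8% and 26.5%. These comparisons share the premalignant arrays, so their calls are not independent. Fcgr2b, Cd22, Cd72, Blk, Vav3, Pik3ap1 and Rasgrp1 were called with both hairpins. Blnk, Pik3cd and Rasgrp3 were called with shEzh2.781 but not with shEzh2.556. Cblb, Dapp1, Pik3r1, Syk and Vav2 were called with shEzh2.556 but not with shEzh2.781. Of these 8, Rasgrp3 alone was called in the direct test between hairpins.

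Side by side, Cblb had a difference of -0.33 with shEzh2.781 (adjusted p = 0.119) and -0.58 with shEzh2.556 (adjusted p = 0.00685, and 0.0757 without shEzh2.556 array 1). Dapp1 had -0.43 with shEzh2.781 (adjusted p = 0.119) and -0.67 with shEzh2.556 (adjusted p = 0.0123, and 0.0827 and 0.125 without premalignant array 2 and shEzh2.556 array 1). Pik3r1 had -0.33 with shEzh2.781 (adjusted p = 0.101) and -0.42 with shEzh2.556 (adjusted p = 0.0278), and the second call ended without either premalignant array (0.0614 and 0.102) or shEzh2.556 array 1 (0.191). In these 3 genes the size was larger with shEzh2.556, but their intervals between hairpins included 0. These were -0.026 to 0.51 for Cblb, -0.11 to 0.59 for Dapp1 and -0.17 to 0.34 for Pik3r1. Pik3cd had -0.44 with shEzh2.781 (adjusted p = 0.0288), a call that ended without any 1 of the premalignant or shEzh2.781 arrays, and -0.27 with shEzh2.556 (adjusted p = 0.12). Syk had -0.29 with shEzh2.781 (adjusted p = 0.149) and -0.37 with shEzh2.556 (adjusted p = 0.0452), a call that ended whichever array was left out.

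The direct comparison of the lymphomas asked whether the hairpin groups differ, in which hairpin and individual tumour cannot be told apart. Cd72, Blk and Itpr2 were higher in shEzh2.781 than in shEzh2.556 lymphomas and Rasgrp3 was lower, which is 3 higher and 1 lower of 37 members, while 5.5% and 4.53% of all genes were called in these directions. Both shEzh2.781 arrays lay above both shEzh2.556 arrays in 11 members and below in 12, against 25% and 40.1% of all genes. The difference, shEzh2.781 minus shEzh2.556, was 1.54 for Cd72 (SE 0.13, adjusted p = 3.74e-05) and 0.94 for Blk (SE 0.14, adjusted p = 0.00187), and both were called whichever array was left out. Itpr2 had signals of 9.92 and 10.10 in shEzh2.781 lymphomas, 9.41 and 9.62 in shEzh2.556 lymphomas, and 9.87 and 9.90 in premalignant cells. The shEzh2.781 arrays were above premalignant cells and the shEzh2.556 arrays below them, and the difference was 0.49 (SE 0.12, adjusted p = 0.0284). It was lost without shEzh2.781 array 2 (0.183) or shEzh2.556 array 1 (0.182) and after quantile normalization (0.0578). Rasgrp3 differed by -0.49 (SE 0.12, adjusted p = 0.0261), and that call ended without shEzh2.781 array 1 (0.167), shEzh2.556 array 1 (0.115) or shEzh2.556 array 2 (0.0841), after quantile normalization (0.0793) and after median centring (0.0508).

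**Figure D4:**
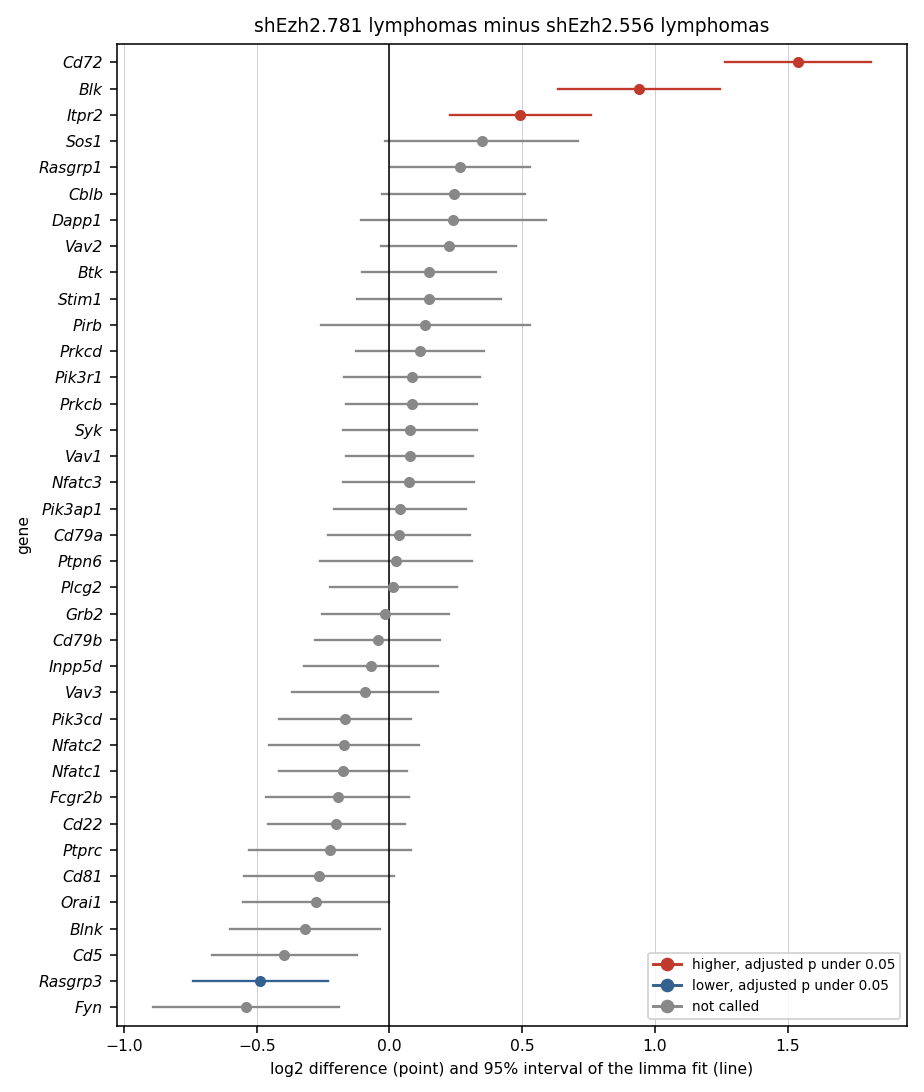
Difference in log2 signal between shEzh2.781 and shEzh2.556 lymphomas (horizontal axis, points) with its 95% interval (lines) for the 37 genes, ordered by size. Cd72 at 1.54 and Blk at 0.94 stand apart on the right, and Fyn at -0.54 and Rasgrp3 at -0.49 are at the lower end.

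Fyn and Cd5, both shared with T cells, did not pass the threshold between hairpins, with differences of -0.54 (adjusted p = 0.0544) and -0.40 (adjusted p = 0.0645). Of 13 T cell markers, 1 was lower and 0 higher in this comparison by limma (6 lower and 0 higher at an unadjusted p under 0.05, median -0.23), with 3 lower without shEzh2.781 array 2. Of all genes, 17.9% were lower and 13.1% higher at that unadjusted threshold. The median over all genes was -0.071, and 0.086 with genes at or below the median level left out. Mean signals of the T cell list were 6.27 to 6.48 in shEzh2.781 lymphomas, 6.61 in both shEzh2.556 arrays and 6.64 to 6.99 in premalignant cells. Markers of other cells differed between the hairpins as well. Of 18 neutrophil markers 15 were higher in shEzh2.781 lymphomas (median 1.71), and all 7 erythroid markers measured were lower (median -1.12), 3 without shEzh2.556 array 1. Of the B-lineage markers, Cd79a, Cd79b and Ptprc are also members. That list had a median of 0.036 with 0 called by limma (0 at an unadjusted p under 0.05). The part of these other cells in the differences of the named genes was not tested.

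Other genes of the pathway, a list of 109 of which 94 were measured, gave 24 lower and 11 higher in lymphomas (25.5% and 11.7%, against 9.61% and 5.6% of all genes), with a median of -0.13 against 0.025 over all genes. Without premalignant array 1 these counts were 18 and 7, and without premalignant array 2 14 and 5. Of the RAS and lipid signalling genes, Rras2, a RAS-related GTPase, fell by 1.86 (SE 0.15, adjusted p = 6.96e-06). Plcg1, the phospholipase C gamma that T cells rely on, fell by 1.41 (SE 0.12, adjusted p = 1.18e-05); Plcg2 had a difference of -0.16. Pik3cg, the catalytic subunit coupled to G proteins, fell by 1.13 (SE 0.10, adjusted p = 1.77e-05). The kinase Fgr fell by 0.68 (SE 0.10, adjusted p = 0.000844), the Fc receptor-like Fcrl1 by 0.95 (SE 0.11, adjusted p = 7.95e-05) and the inhibitory collagen receptor Lair1 by 0.89 (SE 0.14, adjusted p = 0.00115). Myeloid cells also express Fgr, Lair1 and Pik3cg, and neutrophil markers had a median of -1.88 in this comparison. Of 13 T cell markers, of which Lat and Zap70 are also in this pathway list, 3 fell, namely Cd4, Cd8a and Lat (median -0.12). The part of these cells in the values for Fgr, Lair1, Pik3cg and Plcg1 was not tested.

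On the other side stood the Src family kinase Yes1, which rose by 1.63 (SE 0.14, adjusted p = 1.52e-05). Its signals were 8.87 and 8.62 in shEzh2.781 lymphomas, 7.92 and 8.04 in shEzh2.556 lymphomas, and 7.01 and 6.46 in premalignant cells, so the groups did not overlap, and it went the opposite way to Blk. The scaffold Bank1, a B cell substrate of LYN, rose by 1.43 (SE 0.16, adjusted p = 7.86e-05). Inppl1, the lipid phosphatase most like Inpp5d, rose by 0.82 (SE 0.11, adjusted p = 0.000276), while Inpp5d had a difference of -0.31. The calcium channel genes Orai3 and Orai2 rose by 0.51 (adjusted p = 0.00364) and 0.49 (adjusted p = 0.00393). The adaptor Lat2 rose by 0.82 (adjusted p = 0.00506), which was 0.105 without premalignant array 2. Cr2, a complement receptor, rose by 0.43 (adjusted p = 0.0294). Its signals were low, at 5.56 to 6.44 over the 6 arrays, below the median gene level of 7.10. The call was lost without either premalignant array, and also without array 2 of shEzh2.781 or array 1 of shEzh2.556.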

How the data were processed

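The authors deposited 1 normalized log2 value per probe set and array, from biotin-labelled total RNA on Mouse Gene 1.0 ST arrays per the labels. The log2 scale was read from the values (2.30 to 14.22), and how they were normalized is not stated in the labels. The medians of the arrays lay between 6.75 and 6.91. Precision is limited by the number of arrays.

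The platform annotation gave a single gene symbol for 21789 of 35512 probe sets, several for 1621 and none for 12102; only the first kind was used. The probe set with the highest mean per gene gave 19938 genes. limma 3.58.1 in R 4.3.3 fitted the 3 groups together (8.51 prior and 3 residual degrees of freedom), with Benjamini-Hochberg adjustment over all genes and calls at 0.05. The fit was tested on simulated data. Members above the median level numbered 33 of 37; Cd5, Vav3, Rasgrp3 and Nfatc2 were not.

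Members and lists were chosen with earlier results of these data known. Every member is named; of the further pathway list, the 6 with the smallest p in each direction plus Cr2. Alternatives were quantile normalization, median centring, a mean-variance trend, probe sets averaged per gene, dim genes left out, the lymphomas as 1 group, a replicate block and leaving out each array. Tables, promoter windows and figures used Python 3.11.15, pandas 2.3.3 and matplotlib 3.10.9.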

Additional observations from a re-analysis of the deposited data

Results flagged for a closer look

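In 4 of 37 members shEzh2.781 and shEzh2.556 lymphomas differed by limma, and 10% of all genes were called in this comparison. With 2 arrays a hairpin, the hairpin and the individual tumour cannot be told apart. Cd72 differed by 1.54 (log2, adjusted p = 3.74e-05), being lower than in premalignant cells by 0.48 with shEzh2.781 and by 2.02 with shEzh2.556. Blk differed by 0.94 (adjusted p = 0.00187), with all shEzh2.781 arrays above both shEzh2.556 arrays. Itpr2 differed by 0.49 (adjusted p = 0.0284), with opposite signs against premalignant cells, 0.12 with shEzh2.781 and -0.37 with shEzh2.556, neither of which was called. Rasgrp3 differed by -0.49 (adjusted p = 0.0261) at a low signal. Neutrophil markers (median 1.71) and erythroid markers (median -1.12) differed between the same arrays, and their part in these differences was not tested.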

How the results depend on the processing

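The 14 members called in lymphomas numbered 14 after quantile normalization, 12 after median centring, 16 with a mean-variance trend, and 5 with the lymphomas as 1 group, of which 3 fell (3 activators and 0 inhibitors). Over all genes, 3033 were called in the main fit, 3236 after quantile normalization and 3212 after median centring. With the trend 3414 were called, and 1091 with the lymphomas as 1 group. Leaving out any array also gave fewer calls over all genes in this comparison. Inhibitors lower numbered 4 with the trend. With shEzh2.781, 5 members fell after median centring. Between hairpins, members lower in shEzh2.781 lymphomas numbered 0 after median centring and 0 with dim genes left out, in both cases without Rasgrp3 among the calls, and 2 with the trend. The cause was not tested, except that leaving out dim genes removes Rasgrp3 itself.

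With 1 array left out, members called ranged over 7 to 12 in lymphomas (5 to 10 lower, 4 to 8 activators lower, 1 to 3 inhibitors lower, and 2 inhibitors higher each time), 4 to 10 with shEzh2.781 (1 to 2 higher, 3 to 8 lower), 8 to 12 with shEzh2.556 (2 to 3 higher, 5 to 10 lower) and 2 to 5 between hairpins (2 to 4 higher, 0 to 2 lower). Of the 14 calls 7 stayed whichever array was left out. The sign turned for Cd79a (0.036 after median centring, -0.079 to 0.023 over left-out arrays, and above 0 without the first array of any of the 3 groups), Sos1 (-0.30 to 0.0004, the higher value without shEzh2.556 array 1) and Nfatc2 (-0.10 to 0.16, below 0 without premalignant array 1 or shEzh2.556 array 1). None of these 3 was called.

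The replicate numbers showed no strong pairing of the samples: replicate deviations correlated at -0.091, -0.12 and 0.064 between groups over all genes. A weak pairing could be missed with so few arrays. With a replicate block 14 members were called in lymphomas, with Pirb in place of Syk, 10 with shEzh2.781, 12 with shEzh2.556 and 4 between hairpins. Vav3, Rasgrp3, Cd5 and Nfatc2 were not above the median gene level of 7.10, and the signal over background is not in the values used here.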
